A study of Mus musculus with 16 samples.

Results

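Epithelial-mesenchymal transition (EMT) genes are described here in cultured cortical neurons that expressed the first exon of huntingtin with a normal or an expanded glutamine tract. The 10 genes, matched by Ensembl identifier among the 41388 genes counted, were the transcriptional repressors Snai1, Snai2, Zeb1 and Zeb2, the opposing repressor Ovol2, the cadherins Cdh1 and Cdh2, the intermediate filament gene Vim and the matrix metalloproteinases Mmp14 and Mmp2. All 10 had a row in the files. Of these, 7 passed a filter on low counts that left 15103 genes in the test, and Snai1, Snai2 and Cdh1 stayed below it.

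The libraries were made from primary cortical neurons of Swiss Webster mouse embryos at embryonic day 16. Every culture received 2 lentiviruses on day in vitro (DIV) 5, and RNA was taken on DIV 10 and depleted of ribosomal RNA. One virus carried huntingtin (Htt) exon 1 with 25 glutamines (25Q, wild type) or 72 glutamines (72Q, mutant), and the other carried an shRNA against luciferase or 1 of 2 shRNAs against Twist1, a basic helix-loop-helix factor known to drive EMT. Luciferase shRNA went with 25Q (25Q control) or with 72Q (72Q control), and each Twist1 shRNA (shRNA 1, shRNA 2) went with 72Q only, which makes 4 groups of n = 4 libraries. There was no 25Q group with Twist1 shRNA among the samples analysed here, so no result bears on Twist1 knockdown without the expanded tract. The 25Q group also carried a huntingtin fragment, so no group is an untransduced culture, and the promoters that drove the viral inserts are unstated in the labels. Each experiment (exp107, exp108, exp109a and exp109b) supplied 1 library of every group. The labels do not say whether the experiments were separate neuron preparations, so the p-values measure the spread between these libraries, which may be partly technical.

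In EMT, epithelial cells give up E-cadherin (Cdh1) junctions and take on N-cadherin (Cdh2), the intermediate filament vimentin (Vim) and proteases that open the matrix. SNAIL and ZEB proteins repress epithelial genes by binding E-boxes, Twist1 acts beside them, and OVOL proteins hold the epithelial state by repressing Zeb1. Neurons are not epithelial: Cdh2 is the usual classical cadherin of neural tissue, Zeb2 acts in the development of cortical neurons, Zeb1 is a factor of neural progenitors and glia, and Vim marks progenitors and astrocytes.

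Library totals ran from 15814525 to 19533034 counted reads. Levels are given as CPM (counts scaled to library size) after adjustment by trimmed mean of M values (TMM), and differences as log2 fold changes from edgeR's quasi-likelihood test with the experiment as a block. An adjusted p (Benjamini-Hochberg over the 15103 genes) under 0.05 is called a change. Twist1, the targeted gene, checked the labels: it was at 0.290, 0.550, 0.245 and 0 CPM in 25Q (exp107, exp108, exp109a and exp109b, the order used for all values below). It was at 3.29, 5.08, 3.84 and 4.39 CPM in 72Q control, at 1.82, 1.69, 0.904 and 1.87 CPM with shRNA 1 and at 1.40, 2.19, 1.29 and 1.70 CPM with shRNA 2. The 2 shRNAs lowered Twist1 to a level that did not differ between them beyond the spread (log2 difference -0.066, 95% interval -0.559 to 0.427). The sum of 8 pan-neuronal markers was at 8853 to 9973 CPM in 25Q control, 6138 to 7182 CPM in 72Q control, 6667 to 7399 CPM with shRNA 1 and 5783 to 6726 CPM with shRNA 2, so that 25Q control lay above the other groups. Over all libraries the summed astrocyte markers were at 1397 to 2199 CPM, while the summed endothelial markers stayed between 2.26 and 3.65 CPM. These were cultures of neurons with glia, and in RNA from a mixture fewer cells of a type and less RNA per cell cannot be told apart.

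Per kilobase of transcript, Vim and Cdh2 were the most abundant of the 10 genes. In 25Q control, length-scaled levels (RPKM) averaged 55.6 for Vim, 38.6 for Cdh2, 14.7 for Zeb2, 12.4 for Mmp14 and 11.2 for Zeb1. Ovol2 followed at 1.53 RPKM and Mmp2 at 0.322 RPKM, and Snai2, Snai1 and Cdh1 were at 0.0405, 0.0177 and 0.00605 RPKM. The Mmp14 libraries (8.26 to 14.8 RPKM) spanned those of Zeb1 and overlapped those of Zeb2, so the order of these 3 neighbours is not resolved in 25Q control, except that Zeb2 was above Zeb1 in every library. In 72Q control Mmp14 averaged 16.0, Zeb1 13.6 and Zeb2 8.88 RPKM, and Zeb2 was below the others in every library. The Mmp14 libraries (11.6 to 18.4 RPKM) again spanned those of Zeb1, so the order of Mmp14 and Zeb1 is not resolved there either. In every group Vim and Cdh2 were the highest and Snai1, Snai2 and Cdh1 the lowest.

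**Figure D1:**
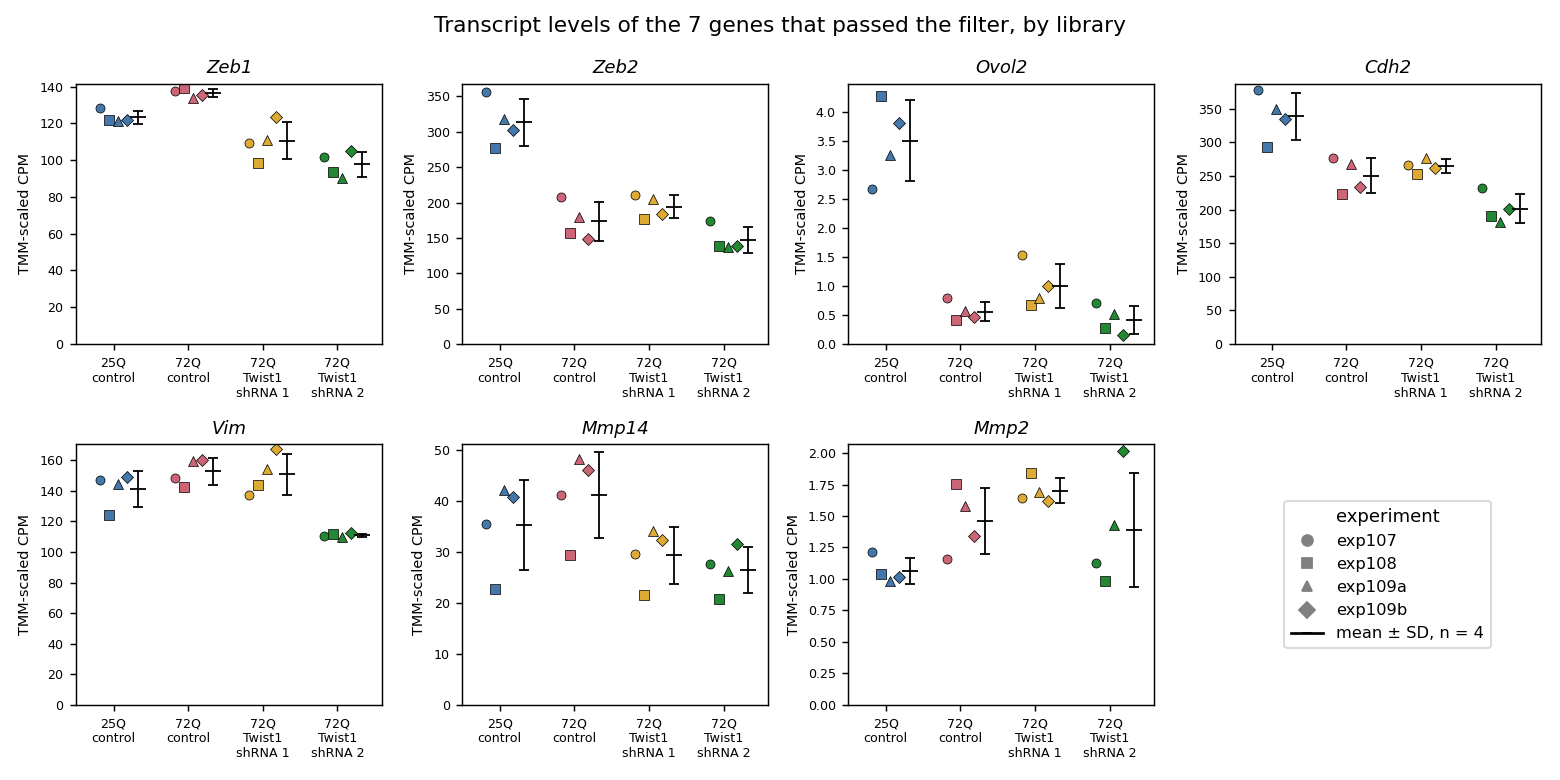
TMM-scaled CPM (linear axes from 0) of the 7 genes that passed the filter in each of the 16 libraries, by group; marker shape gives the experiment and bars the mean ± SD of 4 libraries. Zeb2, Ovol2 and Cdh2 are lower in every 72Q control library than in any 25Q library, and Vim is lowest in the shRNA 2 libraries, between 109.6 and 112 CPM.

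Against 25Q control, the 72Q control libraries had less Zeb2, Ovol2 and Cdh2 and slightly more Zeb1 and Mmp14. Of the 7 tested genes, 2 rose, 3 fell and 2 (Vim and Mmp2) were not called, and 4 of the 7 had groups that did not overlap. The background was high: 57.1% of all genes tested were called in this comparison, 29.3% higher and 27.8% lower, and 38.3% had groups that did not overlap. The count of 5 in 7 is close to that share and is no result about these genes, which are described by size and direction. Neuronal markers fell beside Zeb2, Ovol2 and Cdh2: 6 of 8 pan-neuronal, 7 of 8 excitatory and 7 of 9 inhibitory markers fell with 72Q, while 0, 1 and 1 rose, and none was at 0 in a whole group. Their part in these results was not tested. With library totals in place of TMM factors, the share of called genes that were higher moved from 51.4% to 69.7% and the median over all genes from 0.030 to 0.163 on the log2 scale.

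The 2 SNAIL genes had at most 15 reads in any library. Snai1 (ENSMUSG00000042821, chr2:167538195-167542814), which encodes the SNAIL repressor that starts many EMT programmes, had 0, 0, 1 and 1 reads in 25Q control, 6, 2, 4 and 5 in 72Q control, 2, 1, 0 and 4 with shRNA 1 and 0, 3, 6 and 7 with shRNA 2. Every 72Q control library was above every 25Q library. The depth-scaled ratio of the summed counts (17 against 2) was 7.91, with an exact 95% interval of 1.88 to 70.6 that covers counting error only. In a fit with no filter on low counts, where 30.3% of 28258 genes were called, the adjusted p was 0.0235. That call ended without the 72Q control library of exp107 (adjusted p = 0.109). Neither shRNA gave a called difference from 72Q control for Snai1: the summed counts were 7 with shRNA 1 (ratio 0.414, interval 0.145 to 1.05, adjusted p = 0.356) and 16 with shRNA 2 (adjusted p = 0.932). With shRNA 2 Snai1 stood above 25Q control at a ratio of 6.85 (interval 1.61 to 61.4, adjusted p = 0.0425, where 34.1% of genes were called), a call that ended without the 25Q library of exp107, exp108 or exp109b or the shRNA 2 library of exp108, exp109a or exp109b (adjusted p from 0.0549 to 0.119).

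Snai2 (ENSMUSG00000022676, chr16:14705852-14709395), which encodes SLUG, rose with shRNA 1 and not measurably with shRNA 2. It had 3, 1, 1 and 1 reads in 25Q control, 1, 1, 6 and 0 in 72Q control, 11, 15, 9 and 11 with shRNA 1 and 3, 2, 1 and 0 with shRNA 2. The 4 shRNA 1 libraries were above all 12 others. With no filter, where 23.9% of genes were called between shRNA 1 and 72Q control, the ratio to 72Q control was 5.78 (interval 2.7 to 14.2, adjusted p = 0.000133). The test of shRNA 1 against shRNA 2, where 27.9% were called, gave a ratio of 8.37 (interval 3.57 to 24, adjusted p = 6.48e-06). Both calls were kept in all 20 alternatives run for the unfiltered fit. Between 72Q and 25Q control the ratio was 1.24 (interval 0.377 to 4.34, adjusted p = 0.908), so no difference was detectable at this depth. Of the 8 fibroblast and meningeal markers none was at 0 in a whole group. Their sum ran from 323 to 368 CPM in 72Q control, 247 to 306 CPM with shRNA 1 and 228 to 267 CPM with shRNA 2, and most of it was Pdgfra, which oligodendrocyte precursors also express (333, 275 and 228 CPM). Of the 5 of those markers tested, 2 rose and 2 fell with shRNA 1, and 2 rose and 1 fell with shRNA 2. Their part in the Snai2 result was not tested.

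**Figure D2:**
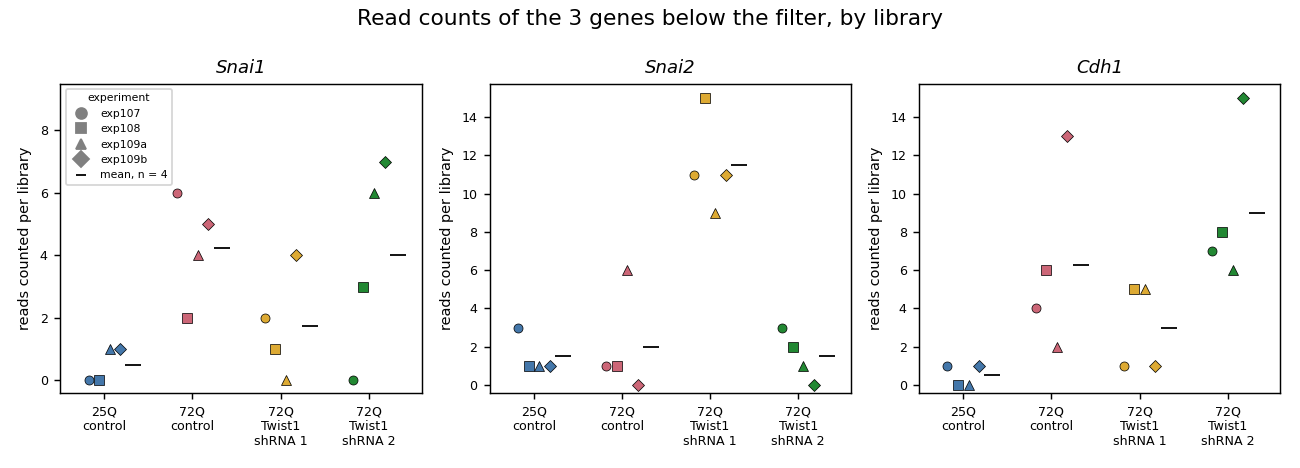
Reads counted per library (linear axes) for the 3 genes below the filter, by group and experiment, with a dash at the mean of 4 libraries. Snai2 has 9 to 15 reads in the shRNA 1 libraries and 0 to 6 in the others; Snai1 and Cdh1 have at most 1 read in every 25Q library.

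The 2 ZEB genes moved in opposite directions with 72Q. Zeb2 (ENSMUSG00000026872, chr2:44983634-45117395, GRCm38) was at 357, 276.5, 318 and 303 CPM in 25Q control and at 208, 156, 180.2 and 148 CPM in 72Q control. All 72Q control libraries were below all 25Q libraries, and the log2 fold change was -0.86 ± 0.050 (SE, adjusted p = 9.64e-15), lower in 4 of 4 experiments. Zeb1 (ENSMUSG00000024238) was at 129, 122, 122 and 122 CPM in 25Q control and at 137, 139, 134 and 135 CPM in 72Q control. The groups did not overlap, but the difference was small, 0.15 ± 0.051 (adjusted p = 0.0154). It was not called without the block (adjusted p = 0.0859), without the 25Q library of exp109b (0.0938) or without the 72Q control library of exp108 (0.1).

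The ratio of Zeb2 to Zeb1 RPKM, which does not depend on scaling between libraries, was 1.31 ± 0.109 (SD) in 25Q control, from 1.17 to 1.43. In 72Q control it was 0.653 ± 0.103, from 0.562 to 0.780, so Zeb2 was the more abundant transcript per length in every 25Q library and Zeb1 in every 72Q control library. With shRNA 1 the ratio was 0.908 ± 0.0979 (0.769 to 0.994) and with shRNA 2 it was 0.775 ± 0.0816 (0.678 to 0.878). No library of either shRNA group reached the lowest 25Q value.

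Both Twist1 shRNAs lowered Zeb1. The 4 libraries were at 109, 98.7, 111 and 123 CPM with shRNA 1 and at 102, 93.3, 90.4 and 105 CPM with shRNA 2, all below every 72Q control library. The log2 fold changes from 72Q control were -0.31 ± 0.051 (adjusted p = 1.02e-05) and -0.48 ± 0.051 (adjusted p = 5.9e-09), each lower in 4 of 4 experiments. These 2 comparisons and the one with 25Q share the 72Q control libraries, so their opposite signs are not independent. Zeb1 also ended below 25Q control, by 0.16 with shRNA 1 and 0.34 with shRNA 2 on the log2 scale (adjusted p = 0.00824 and 1.24e-06). The first of these was lower in 3 of 4 experiments and was not called with upper-quartile factors (-0.076, adjusted p = 0.203), with library totals (-0.034, 0.572), without the block (0.0627), or without the shRNA 1 library of exp108 (0.0702). Among 7 progenitor markers, 5 rose with 72Q, 3 fell with shRNA 1 and 5 fell with shRNA 2. The other 4 were not called with shRNA 1. Of 7 oligodendrocyte lineage markers, 2 rose and 1 fell with 72Q, and 5 and 6 fell with the shRNAs. Over all genes tested 57.1%, 46.3% and 41.8% were called in these comparisons. The count of 3 progenitor markers with shRNA 1 is close to that share. The sums of both lists are given with Vim and Mmp14 below, and their part in the Zeb1 result was not tested.

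Zeb2 went opposite ways with the 2 shRNAs. It was at 211, 177, 205 and 184 CPM with shRNA 1, higher than 72Q control in every experiment (0.17 ± 0.050, adjusted p = 0.00523). With shRNA 2 it was at 174, 139, 136.5 and 139 CPM, lower than 72Q control in every experiment (-0.23 ± 0.050, adjusted p = 0.000426). Both shRNA groups overlapped 72Q control, and neither call held without the block (adjusted p = 0.271 and 0.125). The first also ended without the 72Q control library of exp109b (0.12, adjusted p = 0.0567). The shRNA groups did not overlap each other, and the direct test gave 0.40 ± 0.050 (adjusted p = 6.98e-08). Both stayed below 25Q control, by 0.69 and 1.09 on the log2 scale.

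Annotated transcripts overlap both ZEB genes on the opposite strand, and the sources used here do not state whether the counting used strand. Zeb2 shares 653 exonic bases with Zeb2os, which had 80, 41, 56 and 48 reads in all in the 25Q, 72Q control, shRNA 1 and shRNA 2 groups. Zeb1 shares 198 exonic bases with Gm10125, which had 189, 316, 202 and 324 reads. Reads of overlapping partners cannot be told apart without strand, so part of the Zeb1 and Zeb2 counts is uncertain. Ovol2, described next, shares 359 exonic bases with 1700108N11Rik, which had 4, 1, 2 and 0 reads.

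Ovol2 (ENSMUSG00000037279, chr2:144305175-144332146), the zinc-finger repressor of mesenchymal genes, showed the largest difference of the 7 tested genes between 72Q and 25Q control. It was at 2.66, 4.28, 3.25 and 3.81 CPM in 25Q control and at 0.793, 0.409, 0.565 and 0.4645 CPM in 72Q control. The groups were far apart, with a log2 fold change of -2.44 ± 0.28 (adjusted p = 4.58e-09), and all 28 alternatives gave between -2.78 and -2.21. Libraries with shRNA 1 were at 1.53, 0.665, 0.791 and 0.998 CPM and those with shRNA 2 at 0.6985, 0.2735, 0.524 and 0.159 CPM. Within each experiment the shRNA 1 library was the higher of the 3 72Q libraries and the shRNA 2 library the lowest, but the groups overlapped. Against 72Q control, the difference with shRNA 1 was 0.72 ± 0.36 (adjusted p = 0.0612) and that with shRNA 2 -0.33 ± 0.43 (adjusted p = 0.476). The first was called in 6 of 28 alternatives, among them the unfiltered fit (adjusted p = 0.0185). The shRNAs differed from each other by 1.05 ± 0.38 (adjusted p = 0.00674), a call that ended without the shRNA 1 library of exp107 (0.80, adjusted p = 0.0565). Both shRNA groups stayed below every 25Q library, at -1.72 and -2.77 on the log2 scale.

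Promoter windows from the RefSeq tables (GRCm38.p6) ran from 250 bases before to 50 after a transcript start. They were read for 5 of the 10 genes: Vim, Zeb2, Ovol2, Snai1 and Mmp14. Zeb1 and Cdh2 were left out of this step by their chromosome. SNAIL, ZEB and Twist factors are known to bind E-boxes, CANNTG, which read the same on both strands, and the SNAIL and ZEB form is CACCTG, or CAGGTG on the other strand, which is also a CANNTG. Of 32851 windows, 72.3% held a CANNTG and 20.2% held CACCTG or CAGGTG. The Ovol2 window is shown because this gene had the largest difference with 72Q, and the Mmp14 window because that gene fell with both shRNAs. Capitals mark each CANNTG.
Ovol2, chr2:144331313-144331612, minus strand: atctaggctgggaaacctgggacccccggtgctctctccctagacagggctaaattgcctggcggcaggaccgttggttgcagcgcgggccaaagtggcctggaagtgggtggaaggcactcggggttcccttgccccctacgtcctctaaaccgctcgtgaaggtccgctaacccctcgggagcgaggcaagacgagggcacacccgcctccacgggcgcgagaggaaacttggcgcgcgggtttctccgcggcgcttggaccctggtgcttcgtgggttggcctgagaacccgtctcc
Mmp14, chr14:54431348-54431647, plus strand: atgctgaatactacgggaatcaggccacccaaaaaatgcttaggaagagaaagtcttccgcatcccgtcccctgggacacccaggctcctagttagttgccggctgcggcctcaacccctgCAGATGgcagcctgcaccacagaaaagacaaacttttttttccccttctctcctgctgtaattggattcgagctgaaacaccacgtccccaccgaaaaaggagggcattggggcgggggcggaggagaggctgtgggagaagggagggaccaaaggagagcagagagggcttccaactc
The Ovol2 window has no CANNTG and lies inside the gene's span in the count files, whose upstream end is at 144332146. The Mmp14 window has 1, CAGATG, whose first base lies at -129 from the start. Snai1 has 1 CACCTG, at -126, and the Vim window and the 4 Zeb2 windows have none. A match is a description of these letters, and the series holds no binding data.

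Among the cadherins, Cdh2 fell with 72Q and Cdh1 rose from near 0. Cdh2 (ENSMUSG00000024304) was at 378, 293.5, 349 and 335.5 CPM in 25Q control and at 276, 223, 269 and 233 CPM in 72Q control. Each 72Q control library was below each 25Q library, and the log2 fold change was -0.44 ± 0.053 (adjusted p = 4.27e-08), with values between -0.476 and -0.302 in all 28 alternatives. With shRNA 1 it was at 267, 253, 277.5 and 261 CPM, a difference of 0.086 ± 0.053 from 72Q control (adjusted p = 0.188, 95% interval -0.022 to 0.195). With shRNA 2 it was at 232, 190.3, 182 and 200.5 CPM and lower than 72Q control in every experiment (-0.31 ± 0.053, adjusted p = 1.95e-05). The shRNA groups did not overlap (0.40 ± 0.053 between them, adjusted p = 2.64e-07).

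Cdh1 (ENSMUSG00000000303, chr8:106603351-106670246), which encodes E-cadherin, had 1, 0, 0 and 1 reads in 25Q control, 4, 6, 2 and 13 in 72Q control, 1, 5, 5 and 1 with shRNA 1 and 7, 8, 6 and 15 with shRNA 2. Every 72Q control and shRNA 2 library was above every 25Q library. The depth-scaled ratio of 72Q to 25Q control was 11.6 (25 against 2 reads, interval 2.9 to 101, adjusted p = 0.000593 in the unfiltered fit), and it was called in all 20 alternatives. With shRNA 2 the ratio to 25Q control was 15.4 (interval 3.97 to 132, adjusted p = 1.23e-05). The ratio of shRNA 1 to shRNA 2 was 0.364 (interval 0.172 to 0.716, adjusted p = 0.0401), and it was not called without the block (adjusted p = 0.077) or without the shRNA 1 library of exp107 or exp109b or the shRNA 2 library of exp107, exp108 or exp109b (0.0621 to 0.479). Neither shRNA differed by call from 72Q control (adjusted p = 0.321 and 0.67). Cdh1 made up 0.0151% of the summed RPKM of the 2 cadherins in 25Q control (0 to 0.0334%), 0.252% in 72Q control (0.0741 to 0.505%), 0.109% with shRNA 1 (0.0388 to 0.179%) and 0.415% with shRNA 2 (0.276 to 0.695%). Cdh2 made up nearly all of the pair in every library.

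Markers of epithelial and choroid plexus cells rose beside Cdh1 with 72Q, but with shRNA 2 their sum was below 72Q control while Cdh1 did not fall. Their 7 genes summed to 7.46 to 8.40 CPM in 25Q control, 10.7 to 15.6 CPM in 72Q control, 5.23 to 7.98 CPM with shRNA 1 and 8.21 to 9.60 CPM with shRNA 2. Of the 4 tested, 3 rose with 72Q, 4 fell with shRNA 1 and 1 fell with shRNA 2, and Krt8 was at 0 in all libraries of 25Q control and of shRNA 1. The transthyretin gene Ttr, which choroid plexus makes in bulk, was at 0.0900, 0.127, 0.0569 and 0.0357 CPM in the 4 groups. Their part in the Cdh1 result was not tested.

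The wider cadherin family fell with 72Q. Of 23 listed single cadherin genes 17 were tested, Cdh2 among them. In 72Q control 1 rose and 12 fell, where 57.1% of all genes were called. The median log2 fold change was -0.72 beside 0.030 over all genes. The counts were the same with DESeq2 size factors, upper-quartile factors and library totals. Cdh6 fell by 1.64 ± 0.067 on the log2 scale (56.1 to 18.1 CPM, adjusted p = 4.36e-18) and Cdh8 by 1.38 ± 0.077 (126 to 48.6 CPM, adjusted p = 1.01e-11), while Cdh18 rose by 0.48 ± 0.092 (10.5 to 14.7 CPM, adjusted p = 4.63e-05). These are type II cadherins that mark subsets of neurons. With shRNA 1, 7 rose and 2 fell against 72Q control (median 0.32, where 46.3% of all genes were called), and with shRNA 2, 5 rose and 2 fell (median 0.22, where 41.8% were called). Without the block these were 7 and 0, and 3 and 2, and with library totals 8 rose and 2 fell with shRNA 2.

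Cdh10 had the highest mean difference over both shRNAs, 0.97 with shRNA 1 and 0.49 with shRNA 2 (adjusted p = 4.05e-15 and 2.21e-08), after a fall of 0.45 with 72Q. Cdh4, the R-cadherin gene, fell with 72Q by 0.92 and again with shRNA 1 by 0.31 and shRNA 2 by 0.49 on the log2 scale (adjusted p = 0.0189 and 0.00107). Excitatory neuron markers fell beside the family with 72Q, 7 of 8 of them. Their sum was 2035 to 2102 CPM in 25Q control, 901 to 1282 CPM in 72Q control, 1285 to 1597 CPM with shRNA 1 and 1044 to 1198 CPM with shRNA 2. With shRNA 1, 3 of these markers rose and 2 fell. With shRNA 2, 1 rose and 1 fell, and the sum lay within the range of 72Q control. Their part in the cadherin values was not tested.

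**Figure D3:**
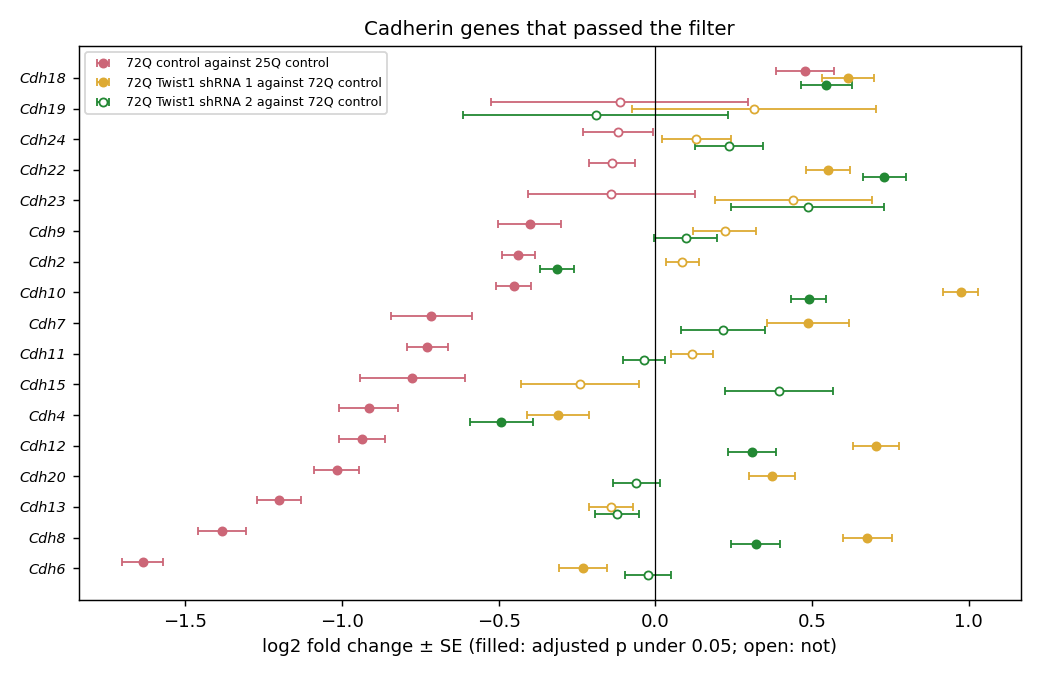
Log2 fold change ± SE of the 17 tested cadherin genes, sorted by the difference of 72Q from 25Q control; filled points have an adjusted p under 0.05. With 72Q, 12 of the 17 lie left of 0 with filled points and Cdh18 alone lies right of 0 with a filled point.

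The catenins, which tie cadherins to actin, were tested for all 7 listed genes. Of all genes tested, 57.1% were called with 72Q. In 72Q control 1 rose (Ctnna1, 0.18, adjusted p = 0.00445) and 4 fell, with Jup, the plakoglobin gene, at -1.02 (128 to 63.7 CPM, adjusted p = 5.72e-07) and Ctnnd2, the neuronal delta-catenin gene, at -0.48 (adjusted p = 5.16e-09). With library totals 2 rose and 3 fell, and with upper-quartile factors 2 and 4. Jup then went opposite ways: 115 CPM with shRNA 1 (0.86, adjusted p = 5.24e-06) and 33.9 CPM with shRNA 2 (-0.90, adjusted p = 8.46e-06). The beta-catenin gene Ctnnb1 fell by 0.70 ± 0.042 with shRNA 1 (adjusted p = 1.54e-14) and by 0.11 with shRNA 2 (adjusted p = 0.0354).

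Vim (ENSMUSG00000026728, chr2:13573927-13582826), the filament gene of progenitors and astrocytes, was at 147, 124, 144 and 149 CPM in 25Q control and at 149, 142, 159 and 160.5 CPM in 72Q control. It was higher in 4 of 4 experiments, but the groups overlapped and the difference of 0.11 ± 0.050 missed the threshold (adjusted p = 0.0524). With upper-quartile factors it was 0.18 (adjusted p = 0.00238) and with library totals 0.25 (adjusted p = 2.8e-05), and 5 of the remaining alternatives also called it. With shRNA 1 it was at 137, 144, 154.5 and 167.5 CPM, a difference of -0.020 ± 0.050 (adjusted p = 0.775). With shRNA 2 it was at 111, 111, 109.6 and 112 CPM, below every other library of the series by this scaling. In RPKM, which lacks the TMM adjustment, the 25Q library of exp108 (50.4) lay within the shRNA 2 range (49.1 to 51.4). The fall from 72Q control with shRNA 2, 0.46 ± 0.050 on the log2 scale, had an adjusted p of 1.1e-08. The shRNA groups differed by 0.44 ± 0.050 (adjusted p = 1.31e-08), and all 28 alternatives kept both calls.

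Astrocyte and progenitor markers moved in the direction of Vim with 72Q, where Vim was not called, and with shRNA 2, but not as a set with shRNA 1. Of 7 astrocyte markers, 4 rose and none fell with 72Q, and 1 rose and none fell with shRNA 1. With shRNA 2 none rose and 4 fell. The sum of the astrocyte markers was 1587 to 2000, 1733 to 2199, 1846 to 2162 and 1397 to 1967 CPM in the 4 groups. Of 7 progenitor markers, 5 rose with 72Q, 3 fell with shRNA 1 and 5 fell with shRNA 2, at sums of 164 to 239, 199 to 271, 202 to 243 and 159 to 211 CPM. No astrocyte or progenitor marker was at 0 in a whole group. Their part in the Vim result was not tested. Of the 9 intermediate filament genes tested, Vim included, 2 rose and 2 fell with 72Q. With shRNA 1, 1 rose and 3 fell, and with shRNA 2, 1 rose and 4 fell. Over all genes tested 57.1%, 46.3% and 41.8% were called in these comparisons. The neuronal alpha-internexin gene Ina fell by 0.18, 0.27 and 0.91 on the log2 scale in these comparisons (adjusted p = 0.00492, 0.000104 and 7.33e-14), and the progenitor filament gene Nes rose by 0.22 with 72Q (adjusted p = 0.00749).

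Mmp14 (ENSMUSG00000000957, chr14:54431604-54441258) encodes a membrane-anchored protease that activates the Mmp2 proenzyme. It was at 35.3, 22.6, 42.1 and 40.65 CPM in 25Q control, 41.1, 29.3, 48.2 and 45.9 CPM in 72Q control, 29.45, 21.4, 34.0 and 32.2 CPM with shRNA 1 and 27.5, 20.6, 26.15 and 31.45 CPM with shRNA 2. The exp108 library was the lowest of every group, so the groups overlapped although the experiments agreed in direction. With 72Q, Mmp14 rose by 0.23 ± 0.065 (adjusted p = 0.00289). It fell by 0.49 ± 0.065 on the log2 scale with shRNA 1 (adjusted p = 3.38e-07) and by 0.63 ± 0.066 with shRNA 2 (adjusted p = 4.32e-09), each in 4 of 4 experiments. Without the block the adjusted p was 0.374 for 72Q, 0.0686 for shRNA 1 and under the threshold for shRNA 2.

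The shRNAs differed by 0.14 ± 0.068 in Mmp14 (adjusted p = 0.072, 95% interval 0.006 to 0.283), which missed the threshold after adjustment. Mmp14 also lay below 25Q control, by 0.25 with shRNA 1 and 0.40 with shRNA 2 on the log2 scale (adjusted p = 0.00169 and 5.88e-06); neither was called without the block (0.297 and 0.0933). Of all genes tested, 23.6% and 21.5% were called lower with shRNA 1 and shRNA 2 against 72Q control. Oligodendrocyte lineage markers fell with both shRNAs, 5 of 7 and 6 of 7. Their sums were 1054 to 1192 CPM in 72Q control, 870 to 971 CPM with shRNA 1 and 747 to 867 CPM with shRNA 2. Their part in the Mmp14 result was not tested.

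Mmp2 (ENSMUSG00000031740, chr8:92827328-92853417), the gelatinase A gene, was near 1 CPM. It was at 1.22, 1.04, 0.981 and 1.02 CPM in 25Q control, 1.16, 1.75, 1.58 and 1.34 CPM in 72Q control, 1.65, 1.84, 1.695 and 1.62 CPM with shRNA 1 and 1.13, 0.985, 1.43 and 2.015 CPM with shRNA 2. The difference of 72Q from 25Q control was 0.41 ± 0.25 (adjusted p = 0.122), and neither shRNA differed from 72Q control by call (0.22 ± 0.22 and -0.062 ± 0.23, adjusted p = 0.414 and 0.847). All shRNA 1 libraries were above all 25Q libraries, a difference of 0.62 ± 0.24 (adjusted p = 0.0162) that ended without the 25Q library of exp109a or exp109b, the shRNA 1 library of exp108, or all of exp108 or exp109a (adjusted p from 0.0505 to 0.0622).

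Of 21 listed metalloproteinase genes 10 were tested, Mmp14 and Mmp2 included. Of all genes tested, 57.1% were called with 72Q and 41.8% with shRNA 2. With 72Q, 1 rose (Mmp14) and 3 fell, but with upper-quartile factors 4 rose and 3 fell and with library totals 5 rose and 2 fell, so no direction is given for the family. Mmp17, which encodes a lipid-anchored protease, fell by 1.10 ± 0.067 on the log2 scale with 72Q (118 to 55.0 CPM, adjusted p = 5.43e-13). It was at 109 CPM with shRNA 1 (0.99, adjusted p = 5.47e-12) and at 50.5 CPM with shRNA 2 (-0.12, adjusted p = 0.178). With shRNA 2, 1 rose and 5 fell under each scaling, among them Mmp24 by 0.72 on the log2 scale (adjusted p = 5.15e-13). Of the 4 inhibitor genes tested, Timp2 rose by 0.26 with 72Q, rose by 0.14 with shRNA 1 and fell by 0.47 with shRNA 2 on the log2 scale (adjusted p = 0.00015, 0.0323 and 4.99e-08).

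**Figure D4:**
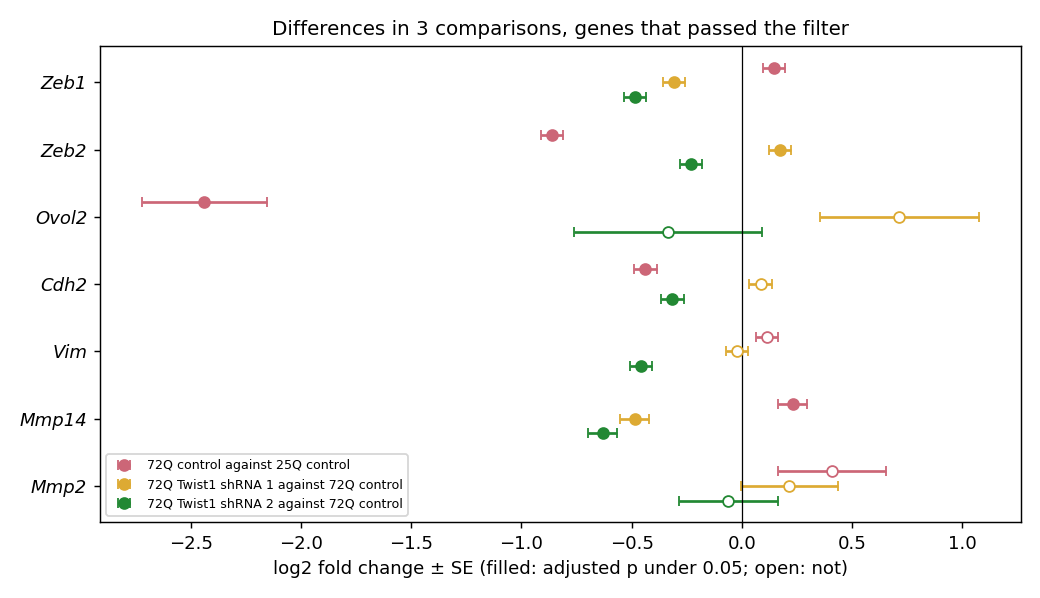
Log2 fold change ± SE of the 7 tested genes in 3 comparisons, which share the 72Q control libraries; filled points have an adjusted p under 0.05. Zeb1 and Mmp14 lie right of 0 with 72Q and left of 0 with both shRNAs. Zeb2, Cdh2 and Vim lie left of 0 with shRNA 2. With shRNA 1, Zeb2 lies right of 0, Cdh2 lies right of 0 with an open point, and Vim lies near 0 with an open point.

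Against 72Q control, 1 of the 7 tested genes rose (Zeb2) and 2 fell (Zeb1 and Mmp14) with shRNA 1, and with shRNA 2 none rose and 5 fell (Zeb1, Zeb2, Cdh2, Vim and Mmp14). In these comparisons 46.3% and 41.8% of all genes tested were called, 23.6% and 21.5% of all genes tested being called lower, and 29.0% and 22.4% had groups that did not overlap, against 1 and 2 of the 7. Without the block 1 of the 7 was called with shRNA 1 and 4 with shRNA 2. Between the shRNAs, 5 of 7 were higher with shRNA 1 and none lower, where 53.2% of all genes were called, 27.3% higher and 25.9% lower. Groups did not overlap for 3 of the 7 and for 33.2% of all genes. The genes that differed were Zeb1 (0.18 ± 0.051, adjusted p = 0.00449), Zeb2, Ovol2, Cdh2 and Vim. The Zeb1 difference was not called with library totals (adjusted p = 0.111) or without exp109a (0.0652). With library totals the share of called genes that were higher moved, for shRNA 2 against 72Q control, from 48.5% to 65.3%, and for shRNA 1 against shRNA 2 from 51.3% to 36.5%. Twist1 itself was at similar levels with both shRNAs, as given above.

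Relative to 25Q control, 1 of the 7 rose and 5 fell with shRNA 1, where 57.4% of all genes were called and 29.4% were lower. With shRNA 2 none rose and 6 fell, where 63.3% were called, 31.4% higher and 31.8% lower. Groups did not overlap for 4 and 5 of the 7, beside 40.1% and 43.4% of all genes. Zeb2, Ovol2 and Cdh2 stayed below 25Q control with both shRNAs, at log2 fold changes of -0.69, -1.72 and -0.35 with shRNA 1 and -1.09, -2.77 and -0.75 with shRNA 2. Vim was 0.093 above 25Q control with shRNA 1 (adjusted p = 0.11) and 0.35 below it on the log2 scale with shRNA 2 (adjusted p = 6.2e-07).

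Other EMT transcription factors and partners did not share 1 direction with 72Q. Of 17 listed, 13 were tested: 4 rose and 6 fell with 72Q, 4 rose and 4 fell with shRNA 1, and 1 rose and 10 fell with shRNA 2 (median -0.25 beside 0.0015 over all genes). Between the shRNAs 10 were higher and 1 lower with shRNA 1. Of all genes tested, 57.1% were called with 72Q, 46.3% with shRNA 1, 41.8% with shRNA 2 and 53.2% between the shRNAs. With shRNA 2, 21.5% of all genes tested were called lower. Besides Twist1, Sox9 rose with 72Q by 0.31 and fell with both shRNAs by 0.30 and 0.57 on the log2 scale (adjusted p = 0.000395, 0.000685 and 2.11e-07); it is a factor of neural progenitors and astrocytes. Tcf4, an E-protein partner of Twist1, fell with 72Q by 0.77 ± 0.048 (adjusted p = 4.45e-14) and rose by 0.27 with shRNA 1 (adjusted p = 2.35e-05), at 0.023 with shRNA 2 (adjusted p = 0.741). Scrt2, a SNAIL-related repressor of neurons, fell by 0.69 on the log2 scale with 72Q and rose by 0.68 with shRNA 1 (adjusted p = 0.000952 and 0.00129).

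Of the epithelial identity factors, 5 of 11 were tested, and 1 rose and 3 fell with 72Q. Over all genes tested 57.1% were called with 72Q, 29.3% higher and 27.8% lower. Klf5, a Krüppel-like factor of epithelia, fell by 2.03 ± 0.11 on the log2 scale (27.0 to 6.62 CPM, adjusted p = 1.2e-14) and rose by 0.86 with shRNA 1 (adjusted p = 9.8e-07), while its difference with shRNA 2 was -0.078 (adjusted p = 0.675). Klf4 fell by 1.20 on the log2 scale (adjusted p = 0.000208) and rose by 0.92 with shRNA 2 (adjusted p = 0.00462). Of the epithelial adhesion and keratin genes, 7 of 14 were tested, and 5 rose and none fell with 72Q (5 and 1 with DESeq2 size factors, 6 and 0 with library totals). The desmoplakin gene Dsp rose by 1.88 ± 0.15 (1.74 to 6.69 CPM, adjusted p = 7.37e-12), and the tight junction gene Ocln rose by 0.63 (adjusted p = 3.39e-05). With shRNA 1, 4 of the 7 fell, where 23.6% of all genes tested were called lower. Ocln was among them, by 0.55 on the log2 scale (adjusted p = 0.000219).

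Mesenchymal matrix and receptor genes, 10 of 15 tested, gave no rise and 5 falls with 72Q, where 57.1% of all genes tested were called. With upper-quartile factors 1 rose and 4 fell, and with library totals 2 and 4. Fn1, the fibronectin gene, fell by 1.54 and Tnc, the tenascin C gene, by 1.32 on the log2 scale (adjusted p = 8.82e-10 and 6.92e-09). Of the 10 tested, 4 rose and 3 fell with shRNA 1, and 2 rose and 3 fell with shRNA 2. In these comparisons 46.3% and 41.8% of all genes tested were called. Col1a1, the type I collagen gene, fell by 0.79 on the log2 scale with 72Q (adjusted p = 0.0263). It rose by 1.94 with shRNA 1 and 1.30 with shRNA 2 (adjusted p = 4.16e-07 and 0.000356), between 0.476 and 2.14 CPM. Pdgfra, at 333 CPM in 72Q control, fell by 0.28 and 0.55 on the log2 scale with the shRNAs (adjusted p = 1.13e-05 and 7.23e-11). In TGF-beta signalling, an inducer of EMT, 12 of 13 genes were tested, and 2 rose and 5 fell with 72Q (5 and 5 with library totals). The count with TMM is close to the 57.1% called over all genes and is no result about the pathway. The receptor gene Tgfbr1 fell by 0.35 on the log2 scale with 72Q and rose by 0.94 with shRNA 1 and 0.43 with shRNA 2 (adjusted p = 0.00177, 2.46e-10 and 0.000209). Smad4, the common mediator, rose by 0.25 with 72Q and fell by 0.41 and 0.34 on the log2 scale with the shRNAs (adjusted p = 6.51e-05, 3.31e-08 and 1.06e-06).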

How the data were processed

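RNA-seq libraries of 4 groups, n = 4 each, were analysed. Reads were aligned to GRCm38 with STAR 2.0.4b and counted per Ensembl gene with featureCounts 1.45 (Subread), per the submitters' processing notes; the annotation release, strandedness and treatment of multiply mapped reads: not given in the sources used here. Each deposited file gives raw counts, and the CPM and RPKM values the authors deposited beside them equalled those recomputed from the counts. Symbols and overlaps came from GENCODE M21.

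The groups were tested with edgeR 4.0.16 in R 4.3.3 (quasi-likelihood, robust, TMM factors, filterByExpr with a minimum count of 10, prior count 2, experiment as a block) over all 16 libraries. The prior count draws log2 fold changes toward no change, most for genes with few reads. The SE and 95% interval took their width from the F statistic and a fold change without prior count. They are therefore approximate for genes with few reads, such as Ovol2 and Mmp2. The experiment label pairs the samples: deviations from the group means correlated at 0.223 to 0.612 between libraries of 1 experiment, for every pair of groups. Except for number 2, the title numbers mark other experiments in the 25Q group than in the 72Q groups. Pairing by title number gave -0.218 to 0.612. Library totals of 15814525 to 19533034 reads and a common biological coefficient of variation of 5.24% set the precision. Ratios for the 3 genes below the filter used summed counts with exact binomial intervals (95%) and the fit with no filter. Replicate libraries varied beyond counting noise (chi-square over its degrees of freedom, 2.78 to 22). The procedure was tested on simulated counts.

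Genes were named by rule: all 10 members, Twist1, and from each list the 2 called genes with the highest and the 2 with the lowest difference between 72Q and 25Q control, plus the highest and the lowest called the same way by both shRNAs, at a mean of at least 1 CPM; some genes that the rule names are not reported here. The members and the lists were chosen with earlier results of these data known. Alternatives were other scalings, no filter, no block, a block by title number, DESeq2 1.42.0, the 2 groups alone, and leaving out each library or experiment.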

Additional observations from a re-analysis of the deposited data

Results flagged for a closer look

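In 3 of 40 sets of 4 libraries (10 genes in 4 groups), 1 library stood apart by a gap of most of the group's range; chance gives about 1 in 20 such sets. For Zeb1 in 25Q control the exp107 library (129 CPM) was above the other 3 (122 CPM each), and the gap was 0.982 of the range. For Zeb2 with shRNA 2 the exp107 library (174 CPM) was above 136.5, 139 and 139 CPM, a gap of 0.928 of the range. For Snai2 in 25Q control the exp107 library, with 3 reads, was above the others with 1 each, a gap of 0.979 in CPM.

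The 2 shRNAs against the same gene differed from each other in 7 of the 10 genes, by the direct test of shRNA 1 against shRNA 2 on the log2 scale: Zeb1 by 0.1775, Zeb2 by 0.4045, Ovol2 by 1.048, Cdh2 by 0.4006 and Vim by 0.4388, and, in the fit with no filter, Snai2 by 2.015 and Cdh1 by -1.008. In the same comparison 53.2% of the genes that passed the filter were called, and 27.9% in the fit with no filter. The prior count draws the values of the unfiltered fit toward no change. The depth-scaled ratios of the summed counts were 8.37 for Snai2 and 0.364 for Cdh1. The Cdh1 difference was called in 14 of 20 alternatives, and the Snai2 difference in all 20. Twist1 differed by -0.066 (adjusted p = 0.826).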

How the results depend on the processing

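Without the replicate block, 3 of the 7 genes were called between 72Q and 25Q control (5 with it) and 1 between shRNA 1 and 72Q control (3 with it); all genes called fell from 6999 to 4561 with shRNA 1 and from 6307 to 3621 with shRNA 2. A block by title number gave 3 genes between 72Q and 25Q control. With no filter, 5 of the 10 were called between shRNA 1 and 72Q control. Leaving out 1 library gave 4 to 6 called genes for 72Q against 25Q control, 3 to 5 for shRNA 1 and 5 for shRNA 2 against 72Q control. For shRNA 1 the 5 came without the 25Q libraries of exp107 or exp108. Each of these fits applied the filter anew, so the counts are not always out of the same 7 genes. Library totals in place of TMM moved the share of called genes that were higher from 48.9% to 66.5% for shRNA 1 and from 49.7% to 72.3% for shRNA 2 against 25Q control, and upper-quartile factors moved them to 61.2% and 61.5%; the median over all genes for shRNA 2 against 25Q control became 0.22 and 0.111. Signs changed for values that were not called. Vim with shRNA 1 (-0.053 to 0.027 over the fits that left out 1 library) became 0.0026 with upper-quartile factors, 0.027 without the shRNA 1 library of exp107 and 0.013 without exp107; Mmp2 with shRNA 2 (-0.28 to 0.099) became 0.0080 with library totals, 0.057 without the 72Q control library of exp108, 0.099 without the shRNA 2 library of exp108 and 0.15 without exp108. In fits with no filter, leaving out a library (a choice made after seeing the data) gave Snai2 -0.50 for 72Q against 25Q control, 0.42 for shRNA 2 against 72Q control and 0.031, 0.034 and 0.11 for shRNA 2 against 25Q control, and Snai1 0.16 and 0.20 for shRNA 2 against 72Q control. The causes were not tested. Depth limits Snai1, Snai2 and Cdh1, at 0 to 15 reads a library.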

Other observations

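The genes whose level followed a tested gene most closely were taken from 13521 genes by Pearson's r of log2 CPM over the 16 libraries, as a description. The libraries share their groups, experiments and scaling, so a high r mainly reflects differences between the 4 groups. Zeb2 was followed most closely by Mycl (0.987) and Add2 (0.986), and Ovol2 by another cadherin gene, Cdh20 (0.971), and by Rimklb (0.969). Cdh20 fell by 1.02 on the log2 scale with 72Q, from 54.9 to 27.2 CPM (adjusted p = 1.58e-12), and rose by 0.37 with shRNA 1 (adjusted p = 0.000141). Zeb1 was followed by Tram1 and the mitochondrial gene mt-Co1 (0.943 each), Vim by Baz1b and Crtc1 (0.95 and 0.949), and Mmp14 by Plagl2 and Prrc2a (0.937 each). For Mmp2 the closest were Mtmr4 (0.817) and Trp53inp1 (0.801).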
